A study of Mus musculus with 8 samples.

Results

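The cytosolic ribosomal protein genes make the protein parts of the ribosomes that translate nuclear mRNAs. They were taken as every gene whose probe sets carry exactly 1 symbol that is Rpsa, Rplp0 to Rplp2, or Rpl or Rps followed by a digit, without pseudogenes and without the Rps6k kinase genes. This gave 48 of the 12393 genes on the array that have a single-symbol probe set. They were 20 small subunit genes, 20 large subunit genes, the 2 stalk genes Rplp0 and Rplp2, and 6 paralogs (Rpl39l, Rpl22l1, Rpl7l1, Rps27l, Rpl3l and Rps4l), which are related copies held apart from the core set. A further 30 symbols of the family, among them Rpl10, Rpl5 and Rplp1, lay on probe sets shared with other symbols and were not analysed here. Each gene is given by its probe set with the highest mean.

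The cells were activated CD8 T cells of 4 OT-1 mice, A to D, whose T cells carry 1 transgenic receptor for an ovalbumin peptide. The cells of each mouse were divided between 2 kinds of ID8 target, a mouse ovarian cancer line loaded with the peptide. One kind overexpressed PD-L1, which engages PD-1 on T cells and inhibits them, and the other was depleted of it. After 4 h at 30 T cells per target cell the T cells were collected magnetically, and their RNA was measured on 1 array each, which gave 8 arrays, 4 for each kind of target. Age, sex and the number of clones behind each ID8 line were not given in the sources used here. All values are deposited log2 expression values, so a difference of 1 is a doubling; differences between targets are overexpressing minus depleted.

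The tissue label was checked against CD8 T cell markers, of which 9 of 10 were tested, with means of 10.48 to 14.63, among them Cd8a and Cd3e. Markers of ID8 cells did not pass between targets, but their mean ran one way in mouse B and the other way in the other mice. The mean of the 11 tested of 19 such markers ran from 7.87 to 9.05 with PD-L1-overexpressing targets, against 7.85 to 8.94 with PD-L1-depleted targets, and differed by 0.77, -1.06, 0.65 and 0.73 in mice A, B, C and D. B cell markers differed between mice. The defining B cell genes Cd79a, Cd79b and Ms4a1 stayed under the filter on low values, whereas Cd74, H2-Aa, H2-Ab1 and Ighm passed it. Of 6 macrophage markers 2 passed the filter, and of 2 erythroid markers 0 passed. In bulk RNA, fewer cells of a type and less RNA per cell cannot be told apart.

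A ribosome holds 1 copy of nearly every one of these proteins, and cells make them in matched amounts. Most are translated from mRNAs that start with a run of pyrimidines, the 5' TOP motif, through which the mTORC1 kinase raises or lowers their translation without a change in the amount of mRNA; an array measures the mRNA and not this step. In CD8 T cells, activation through the antigen receptor drives Myc and mTORC1 and with them ribosome production, while PD-1 dampens receptor and CD28 signals.

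Starts with their surrounding sequence were found in RefSeq (GRCm38.p6) for 42 of the 48 genes, 50 starts in all, each with 250 bases before and 50 after the start. The letters CCGGAAG, a core that ETS family factors bind, were found on either strand in 42% of these starts, against 8.86% of all 32851 starts in the table. The letters AAGATGG, part of a YY1 site, were found in 14% against 6.34%; the 2 motifs can share letters. An unbroken run of at least 8 C or T letters across the start was found in 24% against 3.86%. These matches describe the letters in the windows and say nothing of factor binding. The sequences below run from 85 bases before to 15 from the start, 100 bases each. They are shown for the genes on which the results turn: Rpl27a and Rpl37 for the comparison of targets, Rpl39l beside its parent gene Rpl39, Rpl12, Rpl14 and Rps25 for the comparison of mice, and Rpl35 as a member with a run over the start whose level varied little. Capitals mark either motif, or a run of at least 8 C or T letters across the start.
Rpl27a, chr7:109519110-109519209, plus strand: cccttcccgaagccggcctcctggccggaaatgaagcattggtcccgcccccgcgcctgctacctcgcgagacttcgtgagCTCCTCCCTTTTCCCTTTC
Rpl37, chr15:5116528-5116627, plus strand: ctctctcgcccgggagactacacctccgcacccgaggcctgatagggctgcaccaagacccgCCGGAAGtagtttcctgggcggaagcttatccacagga
Rpl39l, chr16:10170143-10170242, plus strand: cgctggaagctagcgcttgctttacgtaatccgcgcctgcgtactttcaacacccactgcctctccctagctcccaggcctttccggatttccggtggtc
Rpl39, chrX:37085208-37085307, minus strand: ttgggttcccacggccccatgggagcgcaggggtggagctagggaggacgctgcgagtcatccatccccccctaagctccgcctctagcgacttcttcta
Rpl12, chr2:32961627-32961726, plus strand: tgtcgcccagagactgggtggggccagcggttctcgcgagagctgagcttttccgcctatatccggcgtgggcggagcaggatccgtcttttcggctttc
Rpl14, chr9:120571432-120571531, plus strand: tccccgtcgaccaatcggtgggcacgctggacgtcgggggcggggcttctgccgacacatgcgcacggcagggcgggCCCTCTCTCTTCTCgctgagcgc
Rps25, chr9:44407629-44407728, plus strand: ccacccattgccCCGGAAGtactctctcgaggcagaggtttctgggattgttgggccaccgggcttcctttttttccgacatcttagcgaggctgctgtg
Rpl35, chr2:39005117-39005216, minus strand: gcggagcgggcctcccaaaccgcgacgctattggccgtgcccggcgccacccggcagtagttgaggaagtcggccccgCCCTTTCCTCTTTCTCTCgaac
Of these windows, those of Rpl37 and Rps25 hold CCGGAAG, those of Rpl27a, Rpl14 and Rpl35 hold a run across the start, of 20, 14 and 18 letters (that of Rpl27a goes on past the bases shown), and those of Rpl39l, Rpl39 and Rpl12 hold neither within the 100 bases shown.

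The ribosomal protein genes lay near the top of the array's scale, which ran from 3.602 to 15.24. Of the 48, 33 had a mean of 14 or more over the 8 arrays, 3 a mean between 13 and 14 and 10 a lower mean that still passed the filter at 6.872. They made up 33 of the 68 tested genes with a mean of 14 or more. Near the top of the scale a difference may be compressed, which was not tested here. The paralogs Rpl3l, known as the form of muscle, and Rps4l lay under the filter, with means of 4.80 and 5.71 over the 8 arrays, and were not tested, so 46 genes were.

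The comparison of targets asked whether ribosomal protein mRNA differs in T cells by the PD-L1 of their targets. None of the 46 genes passed limma's test at an adjusted p of 0.05, against a background of 0% of all 8003 tested genes. With mouse B left out, 1 of the 46, Rpl37, and 176 of all tested genes passed. With all 4 mice, the smallest adjusted p among the 46 was 0.9995 by limma. Of the 46, 1 gene, Rpl27a, had an unadjusted p under 0.05, as did 228 of all tested genes (2.85%). The difference was above 0 for 27 and below 0 for 19, with a median of 0.0015; over all tested genes 53.4% were above 0 and the median was 0.0033. Differences ran from -0.19 to 0.07, and 43 of the 46 lay within 0.05 of 0. The 95% interval lay inside 1.1-fold either way for 42 genes (91.3%), against 53.5% of all tested genes, and inside 1.2-fold for 45. Narrow intervals were shared by genes of high level. The median SE was 0.0148 for the 46, 0.0148 for the 68 tested genes with a mean of 14 or more and 0.0447 for all tested genes. Of those 68, 33 were ribosomal protein genes, and the interval lay inside 1.2-fold for all 68.

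**Figure D1:**
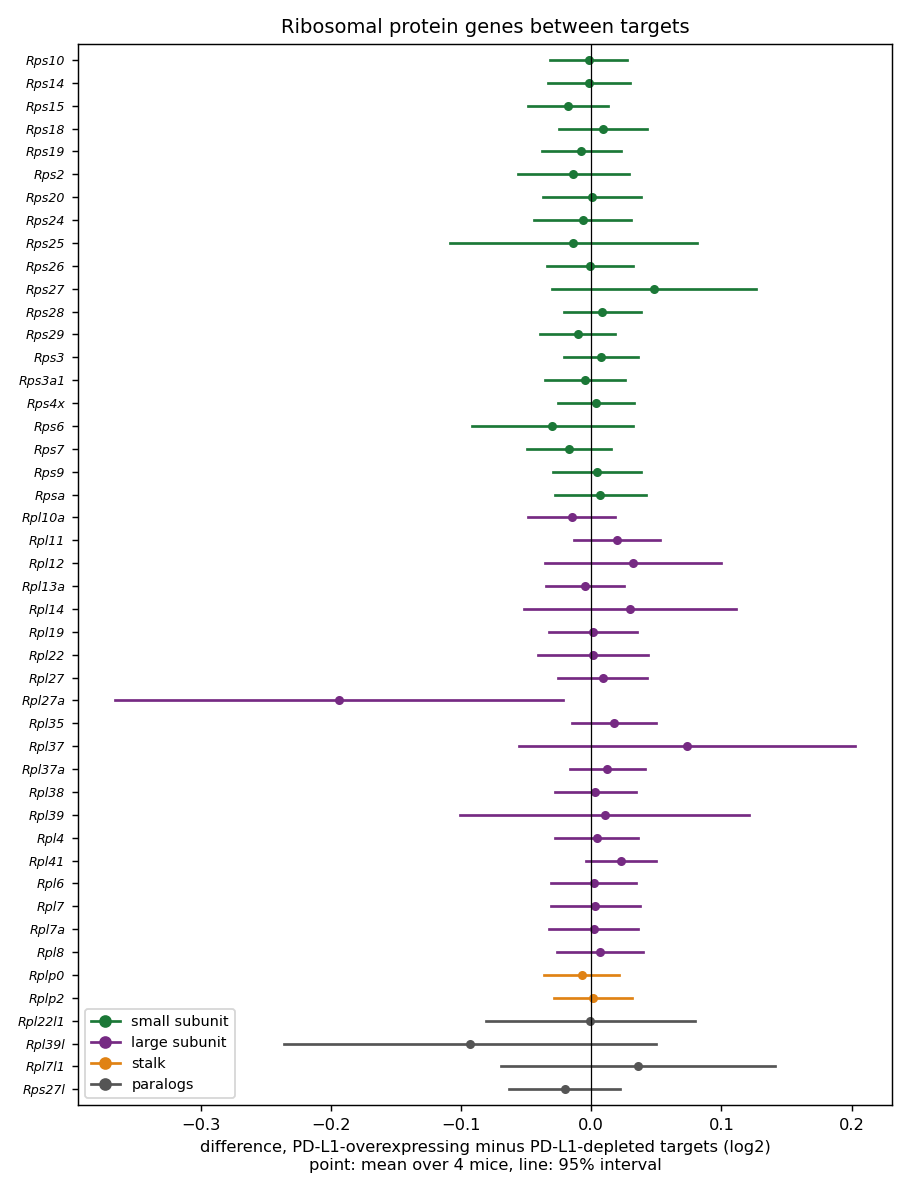
Difference in log2 expression of T cells, PD-L1-overexpressing minus PD-L1-depleted targets, for the 46 tested ribosomal protein genes, grouped by role; points are means over 4 mice and lines 95% intervals from limma. All intervals except that of Rpl27a include 0, and 43 of the points lie within 0.05 of it.

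Among the 20 small subunit genes 8 lay above and 12 below 0, from -0.03 to 0.05 with a median of -0.002, and none passed. Rps6, the protein that S6 kinases phosphorylate downstream of mTORC1, had 11.43, 11.56, 11.51 and 11.49 in mice A to D with PD-L1-overexpressing targets, against 11.51, 11.57, 11.57 and 11.46 with PD-L1-depleted targets. The groups overlapped, and the difference of -0.03 (SE 0.027) did not pass. Rps15, which lies near the decoding centre, was lower with PD-L1-overexpressing targets in all 4 mice, but the mean difference was -0.018, with 14.62 ± 0.006 there against 14.64 ± 0.012 after PD-L1-depleted targets (SD, n = 4 each), and it did not pass. Rpsa, the subunit protein also known as the laminin receptor precursor, averaged 14.88 ± 0.021 with PD-L1-overexpressing targets, against 14.87 ± 0.040 with PD-L1-depleted targets (SD, n = 4 each). The 8 arrays of the X-linked Rps4x spanned 0.019, with a difference of 0.004. Rps27, a zinc finger protein, stood at 10.49, 10.61, 10.47 and 10.49 with PD-L1-overexpressing targets, against 10.53, 10.49, 10.41 and 10.44 with PD-L1-depleted targets, higher in 3 of the 4 mice, and its difference of 0.05 (SE 0.035) did not pass.

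Among the 20 large subunit genes 17 lay above and 3 below 0, with a median of 0.005, and none passed. Rpl27a was the member with the widest difference. It had 8.77, 9.25, 9.28 and 9.30 in mice A to D with PD-L1-overexpressing targets, against 9.31, 9.36, 9.30 and 9.42 with PD-L1-depleted targets. The array of mouse A with PD-L1-overexpressing targets lay far below all others. The groups did not overlap, but only narrowly, with 9.297 in mouse D with PD-L1-overexpressing targets against 9.300 in mouse C with PD-L1-depleted targets. The mean of Rpl27a was 9.25, low for a ribosomal protein gene, and how well its probe set reads this mRNA was not tested. The mean difference was -0.19 (SE 0.076), with an unadjusted p of 0.0315 and an adjusted p of 0.9995 by limma; without mouse A the difference was -0.079. Rpl27a was the 1 member whose groups did not overlap, against 0.45% of all tested genes. Rpl37 showed the highest difference, 0.07 (SE 0.057): it had 12.55, 12.57, 12.77 and 12.58 with PD-L1-overexpressing targets, against 12.37, 12.74, 12.51 and 12.55 with PD-L1-depleted targets. Mouse B ran against the other 3 here. Without mouse B the difference of Rpl37 was 0.15 and passed, with an adjusted p of 0.0115 by limma, in a fit that called 176 genes in all; under the 10 other alternatives its adjusted p was at least 0.981.

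The differences of the other large subunit genes were smaller. Rpl41, the shortest protein of the ribosome, lay above 0 in all 4 mice, with 15.22 ± 0.020 after PD-L1-overexpressing and 15.19 ± 0.020 after PD-L1-depleted targets (SD, n = 4 each), and did not pass. Rpl11, which can leave the ribosome to bind Mdm2 and so steady p53, also lay higher in 4 of 4 mice, by 0.02 (SE 0.014), and did not pass. Rpl13a, which in human cells is released from the ribosome as part of the interferon-induced GAIT complex, had 14.93 ± 0.015 with PD-L1-overexpressing targets, against 14.94 ± 0.006 with PD-L1-depleted targets (SD, n = 4 each). Rpl22, which mouse αβ T cell development needs, averaged 13.91 ± 0.044 and its paralog Rpl22l1, which Rpl22 represses, 13.97 ± 0.053 with PD-L1-overexpressing targets, against 13.90 ± 0.033 and 13.97 ± 0.072 with PD-L1-depleted targets (SD, n = 4 each). Over the whole set 10 genes (21.7%) lay on the same side of 0 in all 4 mice, against 10.5% of all tested genes. This share is a description, since genes on 1 array are not independent.

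The stalk recruits elongation factors to the ribosome. Its base, Rplp0, which is often used as a reference transcript, had 14.91 ± 0.011 with PD-L1-overexpressing targets, against 14.92 ± 0.007 with PD-L1-depleted targets (SD, n = 4 each). Rplp2 had 14.96 ± 0.030 with PD-L1-overexpressing targets, against 14.96 ± 0.017 with PD-L1-depleted targets (SD, n = 4 each), and neither passed. Of the 4 tested paralogs, 1 lay above and 3 below 0. None passed between targets, with Rpl39l at -0.09 (SE 0.063), Rps27l at -0.021 and Rpl7l1 at 0.036.

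The comparison of mice asked which of the genes differ between animals. The spread behind it was that between the 2 co-cultures of 1 animal's cells, with the mean difference between targets taken out. Both co-cultures shared the cells of that mouse, so the animal and the preparation of its cells cannot be told apart. By limma's moderated F test 7 of the 46 passed (15.2%), against 29.3% of all tested genes. They were the paralogs Rpl39l and Rps27l, the large subunit genes Rpl12, Rpl14, Rpl11 and Rpl37a and the small subunit gene Rps25. By role these were 1 of 20 small subunit genes, 4 of 20 large subunit genes, 0 of 2 stalk genes and 2 of 4 paralogs. The count was 2 without mouse A, 15 without mouse B and 4 without mouse D, and 13 with median centring or when a gene's probe sets were averaged. Rpl39l passed in each. The share of all tested genes that passed in each of these fits was not counted here. A shift of the ribosomal protein genes therefore cannot be told from one of the whole array. The median distance between the highest and the lowest mouse mean was 0.051 for the ribosomal protein genes and 0.186 for all tested genes. The mice lay within 1.1-fold of each other for 40 of the 46 (87.0%), against 30.4% of all tested genes, and more than 1.5-fold apart for 1, Rpl39l.

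Among the ribosomal protein genes a high level went with this closeness, but other genes at that level were less close. Among the ribosomal protein genes with a mean of 14 or more the median distance was 0.039 and 2 of 33 passed, whereas the 35 other genes at that level had a median of 0.090 and 16 passed (45.7%). Among the 13 tested ribosomal protein genes with a mean under 14 the median was 0.134 and 5 passed. The part of the scale's upper end in these values was not tested.

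**Figure D2:**
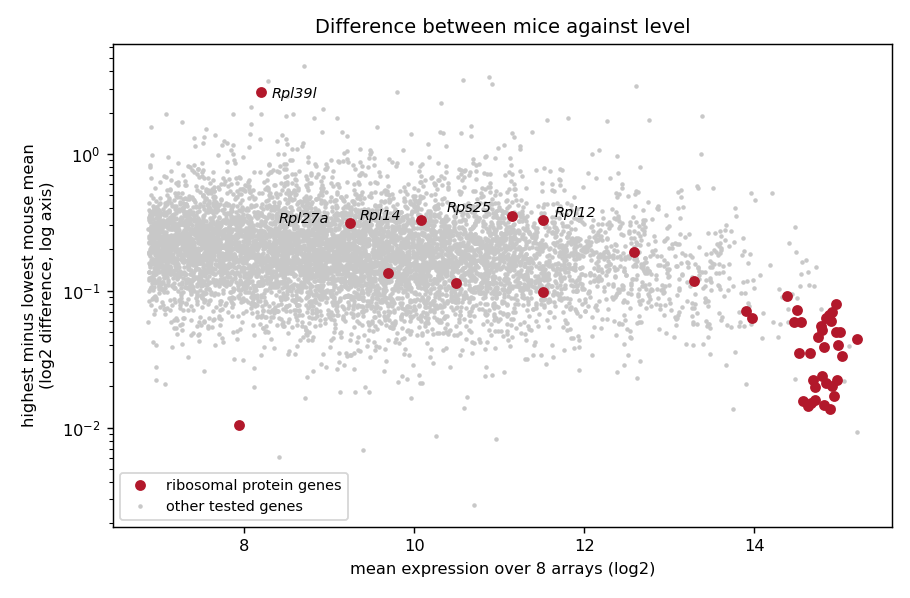
Distance between the highest and the lowest mouse mean (log2 difference, log axis) against mean log2 expression over the 8 arrays, for the 46 tested ribosomal protein genes (large points) and the other tested genes (small points). The 33 ribosomal protein genes with a mean of 14 or more lie at or under 0.092, and Rpl39l stands at 2.82.

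Rpl39l differed most. It is an autosomal copy of the X-linked Rpl39, encoded on chromosome 16, and is known from mouse testis, where it takes the place of Rpl39 in the exit tunnel of the ribosome. With PD-L1-overexpressing targets it had 7.85, 9.73, 6.94 and 8.08 in mice A, B, C and D, against 7.78, 9.99, 7.14 and 8.07 with PD-L1-depleted targets. Both arrays of mouse B were the highest and both of mouse C the lowest, whichever the target. Mouse B lay 2.22 (SE 0.073) above the mean of the other 3 mice, 4.65-fold, with an adjusted p of 5.35e-07 by limma. Mouse C lay -1.54 from the others and mouse A -0.51, both passing, and mouse D did not pass. Without mouse B, mouse A lay 0.26 above the rest. In comparisons of pairs of mice, added after the data were examined, mouse B exceeded mouse C 7.06-fold. The difference between mice A and D did not pass (adjusted p = 0.0623 by limma, over all tested genes), and those of the other 5 pairs did, with adjusted p of at most 0.00043. Its parent gene Rpl39 had 7.94, 7.93, 7.98 and 7.92 with PD-L1-overexpressing targets, against 7.94, 7.93, 7.91 and 7.96 with PD-L1-depleted targets, and the mouse means lay within 0.010 of each other (F test adjusted p = 0.999 by limma). The mean of Rpl39 was 7.94, not far above the filter at 6.872, whereas 33 of the ribosomal protein genes had a mean of 14 or more. How well its probe set reads this mRNA was not tested, so the flat values say little of Rpl39. The mean of the 4 tested B cell markers was 10.02, 11.35, 10.19 and 10.92 in mice A to D with PD-L1-overexpressing targets, against 10.05, 11.29, 10.28 and 10.96 with PD-L1-depleted targets. This mean was also highest in mouse B, and lay higher in mouse C than in mouse A. Among the 4 markers only Cd74 ran in the same order of mice as Rpl39l, with 12.40, 12.69, 11.96 and 12.51 in mice A to D with PD-L1-overexpressing targets, against 12.43, 12.71, 11.99 and 12.45 with PD-L1-depleted targets. H2-Aa, H2-Ab1 and Ighm were each lowest in mouse A, which differed from the other mice by -2.02, -0.54 and -0.65, and Ighm was highest in mouse D. The part of B cells, whose defining genes Cd79a, Cd79b and Ms4a1 lay under the filter, was not tested.

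The other paralog that passed was Rps27l, a p53 target gene in human and mouse cells. It had 13.23, 13.22, 13.33 and 13.34 with PD-L1-overexpressing targets, against 13.29, 13.22, 13.34 and 13.34 with PD-L1-depleted targets. Mouse B was lower than the others by 0.090 (SE 0.022; adjusted p = 0.0351 by limma), and the 2 other probe sets of the gene also lay lower there, with differences of -0.069 and -0.084. The call in mouse B was lost under 5 of 8 alternatives, at -0.063 with median centring. Its paralog Rps27 did not pass the F test (adjusted p = 0.271 by limma).

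Mouse A held most of the remaining calls, among the ribosomal protein genes as among all tested genes. Compared with the mean of the other 3 mice, 6 of the 46 ribosomal protein genes were higher in it and 5 lower. Both shares lay under those of all tested genes, 18.1% and 12.7%. In mouse B 1 was higher (Rpl39l) and 1 lower (Rps27l), against 6.3% and 2.96%. In mouse C 1 was higher (Rpl37a, by 0.055) and 3 lower (Rpl39l, Rps25 and Rpl12), against 3.09% and 5.35%; the call in mouse C was lost under 7 of 8 alternatives for Rpl37a and under 3 for Rps25 and for Rpl12. In mouse D 0 were higher and 0 lower, against 4.56% and 4.09%. The counts higher and lower in mouse A were 11 and 6 without mouse B, 4 and 3 without mouse C and 2 and 3 without mouse D. Shares of all tested genes in those fits were not counted here. Cell type markers differed with mouse A too. Of the 9 tested CD8 T cell markers 7 (77.8%) passed between mice, and 1 was higher and 6 lower in mouse A, among them Prf1 (-0.32), Cd247 (-0.28) and Cd3g (-0.21). Of the 4 tested B cell markers 3 were lower there. Their part in the differences of mouse A was not tested.

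Rpl12, which sits at the base of the stalk, had 11.77, 11.46, 11.44 and 11.47 with PD-L1-overexpressing targets, against 11.69, 11.51, 11.37 and 11.43 with PD-L1-depleted targets. Both arrays of mouse A lay above all others, and the mouse exceeded the rest by 0.29 (SE 0.035), 1.22-fold. Rps25, which initiation on several viral RNAs needs in yeast and human cells, had 11.25, 11.25, 10.99 and 11.06 with PD-L1-overexpressing targets, against 11.41, 11.14, 10.96 and 11.09 with PD-L1-depleted targets. Mouse A was higher by 0.25 (SE 0.048) and mouse C lower by 0.22. The lower array of mouse A was level with the higher one of mouse B. Rpl14 ran the other way, with 9.83, 10.22, 10.16 and 10.16 with PD-L1-overexpressing targets, against 9.90, 10.16, 10.11 and 10.09 with PD-L1-depleted targets. Both arrays of mouse A were the lowest, 1.22-fold below the mean of the others. Each of these 3 genes has 1 single-symbol probe set, so no other such probe set bears on them. Rpl12, Rps25 and Rpl14 had means of 11.52, 11.14 and 10.08, whereas 33 of the ribosomal protein genes had a mean of 14 or more. How well their probe sets read these mRNAs was not tested. The 102 probe sets with several symbols that hold a symbol of the family were not examined for these genes.

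The remaining genes that passed in mouse A moved by little, apart from Rpl27a. Of these, Rpl8, Rps10, Rpl4, Rps3 and Rpl27a did not pass the moderated F test between mice (adjusted p = 0.0566, 0.0608, 0.0898, 0.115 and 0.140 by limma). For them a difference between mice was therefore not established by that test. Of 8 alternatives, the call in mouse A was lost under 6 for Rpl37a, 5 for Rpl4 and Rps3, 4 for Rpl27a, 2 for Rpl8 and Rps10 and 1 for Rpl11. Rpl8, Rps10, Rpl4 and Rps3, the first and the third of which lie near the peptidyl transferase centre and the exit tunnel, were higher by 0.069, 0.058, 0.051 and 0.045. Rpl11 and Rpl37a were lower, with differences of -0.084 and -0.051. Rps10 had 5 other tested probe sets, and all 5 were higher in mouse A, by 0.031 to 0.24. Of the 2 other probe sets of Rpl37a, 1 was lower by a like amount (-0.056) and 1 was above the others (0.026). Rpl27a differed by -0.28 in mouse A (adjusted p = 0.0414 by limma), a value carried by the array with PD-L1-overexpressing targets, 8.77 against 9.31 with PD-L1-depleted targets.

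**Figure D3:**
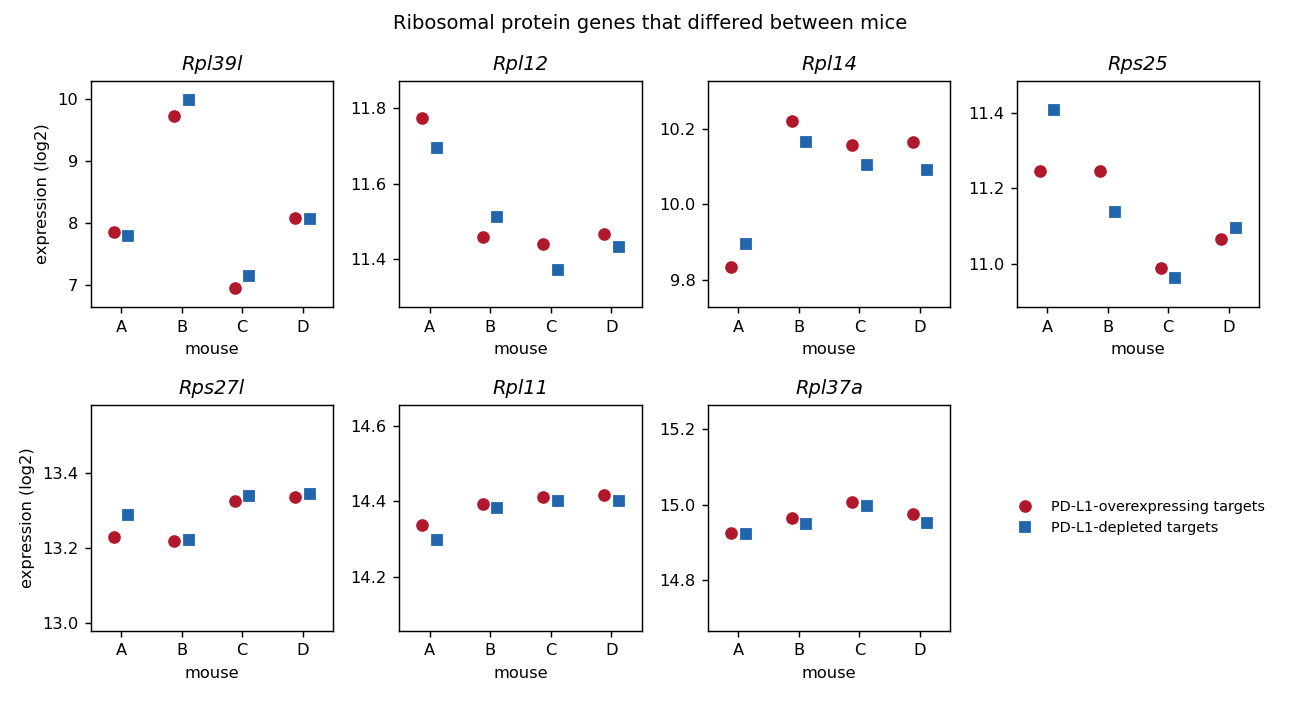
Log2 expression on every array of the 7 ribosomal protein genes that differed between mice, by mouse, with PD-L1-overexpressing targets (circles) left of PD-L1-depleted targets (squares); each panel has its own axis. The 2 arrays of a mouse lie close together for Rpl39l, with mouse B at 9.73 and 9.99, and mouse A stands apart for Rpl12 and Rpl14.

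Other probe sets of the same genes gave a second view of the comparison of targets. They numbered 43 tested probe sets of 19 genes, and 36 of the 43 had a wider range over the 8 arrays than the gene's probe set with the highest mean; the median range was 0.130 against 0.072. A pattern picked after the values were seen was then counted. In 24 of the 43 (55.8%) the value with PD-L1-overexpressing targets was higher in mice A and C and lower in mouse B. The same pattern was seen in 8 of the 46 probe sets with the highest mean (17.4%) and in 16.3% of all 12455 single-symbol probe sets above the filter. The median difference between targets of the 43 was 0.015, -0.034, 0.037 and -0.002 in mice A, B, C and D, against 0.001, 0.028, -0.020 and 0.005 for all tested genes. Asking also for a higher value in mouse D, as the ID8 marker mean has, left 13 of the 43 (30.2%), against 10.9% of all these probe sets. None of the 43 passed between targets.

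Examples of the pattern follow. For Rps9 another probe set differed between targets by 0.18, -0.28 and 0.14 in mice A, B and C, where the one with the highest mean differed by 0.006, 0.012 and -0.028. For Rps24 another probe set differed by 0.086, -0.28 and 0.23, for Rpl27 another probe set by 0.10, -0.21 and 0.18, and for Rpl13a another probe set by 0.23, -0.14 and 0.091. The ID8 marker mean has the same signs in these 3 mice, 0.77, -1.06 and 0.65. Since the examples were picked for these signs, the match was fixed by the choice and bears on no cause. The part of RNA from target cells in these values was not tested. In mouse D, where the ID8 marker mean differed by 0.73, 21 of the 43 probe sets lay above 0, against 33 in mouse A, 12 in mouse B and 35 in mouse C.

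**Figure D4:**
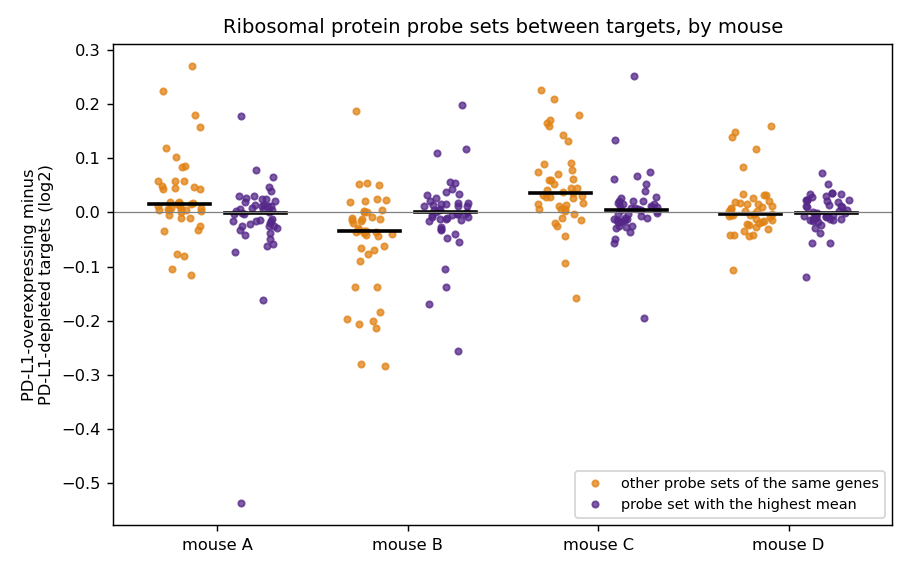
Difference in log2 expression in each mouse, PD-L1-overexpressing minus PD-L1-depleted targets, for the 43 other tested probe sets of ribosomal protein genes and for the 46 with the highest mean per gene; bars are medians. The medians of the other probe sets lie above 0 in mice A and C (0.015 and 0.037) and below it in mouse B (-0.034).

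Genes that build the ribosome or control its making were examined beside its proteins. Of 51 tested ribosome biogenesis genes, which make and process rRNA and assemble the subunits, 0 passed between targets, with a median of 0.011, and 27 (52.9%) passed between mice, against 29.3% of all tested genes. In mouse A 31 were higher and 1 lower, against 18.1% and 12.7% of all tested genes. Polr1c, a subunit of RNA polymerases I and III, was higher there by 0.27 (SE 0.031), the U3 snoRNP protein Rrp9 by 0.37 (SE 0.044) and the box C/D snoRNP protein Nop58 by 0.25 (SE 0.033). The median difference of mouse A from the other mice was 0.016 for the ribosomal protein genes, 0.165 for the biogenesis genes and 0.022 for all tested genes. The median distance between the highest and lowest mouse was 0.051, 0.226 and 0.186 in these sets.

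Of 22 genes of translation elongation and others whose mRNAs share the TOP class, 0 passed between targets, with a median of 0.002, and 9 (40.9%) passed between mice, against 29.3% of all tested genes. In mouse A 8 were higher and 3 lower, against 18.1% and 12.7%. Of 20 genes listed for mTOR and Myc control 0 passed between targets, with a median of -0.001, and 8 (40%) between mice, against 29.3% of all tested genes. In mouse A 5 of the 20 were higher and 4 lower, against 18.1% and 12.7%. These counts include Pdk1, which is a kinase of the mitochondrial pyruvate dehydrogenase and not of mTOR control. Pdk1 had the smallest p of the list between mice and was lower in mouse A (-0.37, SE 0.042). Larp1, which binds TOP mRNAs, was higher in mouse A by 0.20 (SE 0.030), and Eif4ebp2, which holds back the cap-binding factor, by 0.22 (SE 0.042). Myc was higher in mouse B by 0.21 (SE 0.044). Of the 74 mitochondrial ribosomal protein genes, which serve translation inside mitochondria, 0 passed between targets and 22 (29.7%) passed between mice, about the 29.3% of all tested genes. In mouse A 7 of the 74 were higher and 25 lower, against 18.1% and 12.7% of all tested genes.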

How the data were processed

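Total RNA of 8 samples was biotin-labelled and hybridised to arrays, per the labels' protocols. The deposited table holds 1 log2 value for each probe set on each array. That the scale is log2 follows from the range of the values; how the authors normalised them is not given in the sources used here, and a shift shared by most genes could have been removed. Of 22690 probe sets, 64 control probe sets were left out. Genes were named from the platform annotation where it gave 1 symbol (20380 probe sets); 691 probe sets had several symbols and named no gene. The probe set with the highest mean stood for its gene, and the 8003 genes with a mean above 6.872, the 40th percentile of non-control probe sets, were tested. The table held 0 columns of other samples.

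The tests were limma 3.58.1 in R 4.3.3 (lmFit, eBayes with a trend). They were two-sided, adjusted by Benjamini-Hochberg over all 8003 genes, and a gene passed at 0.05. Targets were compared with the mouse as a fixed block, and mice by the moderated F test and as 1 mouse against the mean of the other 3, with the target as covariate. The pairing comes from the series design and the sample titles; deviations of a mouse's 2 arrays from the group means correlated across genes at 0.82, 0.16, 0.61 and 0.64 in mice A to D. The spread behind each p-value is how the difference between targets varies from mouse to mouse, moderated by limma with a trend on level. Each mouse had 1 array for each target, so the spread between like co-cultures was not measured. The 4 arrays a group limit the precision. The fits were tested on simulated data with 200 changed genes.

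The members and all gene lists were chosen with earlier results of these data known. Named members were the 6 of smallest p between targets in either direction, the 12 of smallest p between mice, the 3 with the largest called difference in each mouse and direction, and fixed members of known role; from other lists up to 4 genes with the smallest p. Rps9, Rps24 and Rpl27 were named for their other probe sets after their values were seen. Alternatives were no replicate block, a random block, median centring, quantile normalisation, no filter, averaging a gene's probe sets, eBayes without a trend, and leaving out each mouse. Promoter sequences came from RefSeq (GRCm38.p6).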

Additional observations from a re-analysis of the deposited data

Results flagged for a closer look

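Within a group of 4 arrays, 1 array stood apart from the other 3 in 8 of the 60 groups of values examined, over the named members and both targets; chance gives about 1 in 20 for groups not chosen by their values. The named members were chosen in part by their differences between mice and targets, which favours such arrays, so the count of 8 cannot be read against that share. The value given is the gap to the nearest array as a share of the group's range, which exceeded Dixon's critical value in each case. Mouse A with PD-L1-overexpressing targets was the highest for Rpl12 (0.922) and for Rpl3l (0.983), which lay under the filter on low values, and the lowest for Rpl14 (0.838) and Rpl27a (0.915). For Rpl12 and Rpl14 the other array of mouse A lay on the same side, and for Rpl27a it did not. Mouse C was the highest for Rpl37 with PD-L1-overexpressing targets (0.838), and mouse B the highest for Rps27 with the same targets (0.837). With PD-L1-depleted targets, mouse B was the lowest for Rpl7l1 (0.871) and mouse A the highest for Rps7 (0.905).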

How the results depend on the processing

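Between targets, 0 members passed under every alternative except without replicate B, where Rpl37 did (leaving out a mouse gave 0 to 1 members and 0 to 176 genes in all). The median of the members, 0.0015, became 0.0098 with median centring. Without the replicate block 0 members passed and the median was 0.00153; the replicate block changed no call. For the comparison of mice and for single mice, shares of all tested genes under the alternatives were not counted, so those counts describe the members only. Between mice, 7 members became 13 with median centring, 13 with probe sets of a gene averaged, 4 with eBayes without a trend, and 2 to 15 when a mouse was left out, 2 without mouse A, 15 without mouse B and 4 without mouse D. Rpl39l passed in all of these, and Rpl12 and Rpl14 in all but the one without mouse A; Rps25 was lost without mouse A and without mouse C. Rpl37a kept its call only without mouse B, Rps27l was lost under 3 of the alternatives and Rpl11 under 4. The count higher in mouse A (6) was 2 without a trend and 2 to 11 when a mouse was left out; the count lower there (5) was 3 with no filter, 2 without a trend and 3 to 6. In mouse B the 1 higher became 2 with median centring, 4 with the mean of probe sets and 1 to 2 when a mouse was left out, and the 1 lower became 0 with median centring, no filter or no trend, 2 with the mean of probe sets and 0 to 1. In mouse C the 1 higher became 0 with quantile normalisation, median centring, no filter, the mean of probe sets or no trend and 0 to 3 when a mouse was left out, and the 3 lower became 1 with quantile normalisation or no trend and 1 to 3. In mouse D the 0 higher became 0 to 2 when a mouse was left out, and the 0 lower became 4 with median centring, 2 with the mean of probe sets and 1 to 2. Rpl39l in mouse A, -0.51 against the other mice, ran from -1.15 to 0.26 when a mouse was left out, since mouse B is high in the mean it is set against. Of 308 values of named members between targets, 23 changed sign without passing. In single mice 43 of 136 values lost their call. The causes were not tested. Values near the top of the scale limit what can be seen there.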
